A study of Bos taurus with 6 samples.

Results

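Mitochondrial ribosomal protein genes are the nuclear genes for the proteins of the ribosome inside mitochondria, and they were taken here as every gene whose symbol begins with MRPL or MRPS followed by a digit. The rule found 78 of the 17325 genes in the files, 49 named for the large subunit (MRPL) and 29 for the small subunit (MRPS). RNA came from oocytes of cattle (Bos taurus) that had been matured in vitro and had reached metaphase II, where the egg pauses until it is fertilized. There were 3 libraries labelled NC, the negative control, and 3 labelled siMTFP1, the knockdown of MTFP1. The labels give neither the breed or age of the donors nor the number of oocytes in a library. They do not say whether the replicates were separate cultures, so the p-values speak only of the spread between these 6 samples, which may be technical. Values are FPKM, the fragments on a gene relative to the length of its transcript and to all fragments mapped in that library, so levels of different genes can be set side by side.

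The mitochondrial ribosome translates only the few messages of the mitochondrial genome, which encode core subunits of the respiratory chain and ATP synthase. Its large subunit joins amino acids and holds the tunnel through which the new chain leaves, and its small subunit decodes the message. All of its proteins are encoded in the nucleus, made in the cytosol and imported. Some have relatives in the bacterial ribosome, and others are found only in mitochondria. Oocytes hold a very large number of mitochondria and are transcriptionally quiet at metaphase II.

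Each library had 15120 to 15533 genes above 0, and its FPKM values summed to between 784366 and 892790.4. The oocyte marker BTG4, which helps to clear maternal messages, had a mean of 10120.4 FPKM over the 6 libraries. Of 18 markers of cumulus and granulosa cells, the somatic cells around an oocyte, 15 were above 0 in every library. The most abundant were STAR at 54.5 to 72.6 FPKM, HAS2 at 33.8 to 49.9 FPKM and SERPINE2 at 13.3 to 43.1 FPKM, while FSHR was at 0 in 5 libraries, AMH in 4 and FOXL2 in 2. The summed FPKM of these markers was 172, 153 and 151 in NC 1, 2 and 3 and 179, 206 and 168 in siMTFP1 1, 2 and 3. Theca and stroma markers and leukocyte markers summed to at most 28.7 and 6.04 FPKM in any library. MTFP1, the targeted gene, measured 0.53, 0.55 and 0.05 FPKM in the NC libraries, against 0.43, 0.58 and 1.15 in the siMTFP1 ones. Its level was near 0 in both groups and not lower in siMTFP1 (exact two-sided permutation test, p = 0.4, smallest possible p 0.1), so the groups are named by their labels only.

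All 78 members were above 0 in every library, and their levels spanned 1609-fold between the highest and the lowest mean over the 6 libraries. At the top stood MRPS16, a protein of the body of the small subunit with a bacterial relative. It measured 2514, 2364 and 2490.2 FPKM in NC 1, 2 and 3 and 2164, 2489 and 2943 FPKM in siMTFP1 1, 2 and 3. It ranked 40 by mean FPKM among all 17325 genes. MRPL20, whose bacterial relative binds ribosomal RNA early in assembly, was next at 1509, 1604 and 1363 FPKM in the NC libraries and 1616, 1502 and 1416 FPKM in the siMTFP1 libraries. It ranked 78 among all genes, and MRPS16 lay above MRPL20 in each of the 6 libraries. These were the only members among the 100 most abundant genes, and together they made up 41.9% to 44.0% of the summed FPKM of the members in a library.

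Below this pair the levels fell off steeply. After MRPL20, the most abundant large subunit members were MRPL32, MRPL13, MRPL39 and MRPL42, with means of 429, 391, 381 and 278 FPKM over the 6 libraries. MRPL32 is known as the substrate whose cleavage by the inner membrane m-AAA protease is needed for ribosome assembly. In the small subunit MRPS31, MRPS18C, MRPS14 and MRPS10 followed MRPS16, with mean levels of 256, 227, 195 and 191 FPKM. A mean above 100 FPKM was reached by 12 large and 7 small subunit members, and a mean under 10 FPKM was found in 15 large and 7 small subunit members. The 10 most abundant members held 68.0% to 71.5% of the members' summed FPKM.

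The lowest level of all was that of MRPL12, the protein of the flexible stalk that is present in several copies per ribosome. Its values were 1.19, 0.81 and 1.44 FPKM in NC 1, 2 and 3 and 1.43, 3.35 and 1.08 FPKM in siMTFP1 1, 2 and 3. Its stalk partner MRPL10 had a mean of 7.65 FPKM, and the large subunit members MRPL1 and MRPL11 had means of 14.4 and 27.8 FPKM. Next to MRPL12 at the bottom of the large subunit came MRPL28 and MRPL24, with mean levels of 1.89 and 1.99 FPKM. The lowest small subunit members were MRPS9 (2.32 FPKM), MRPS34 (3.09 FPKM) and MRPS2 (4.64 FPKM). Proteins of the tunnel and its exit spanned a wide range, from MRPL24 at 1.99 FPKM through MRPL23 at 22.8, MRPL47 at 251 and MRPL22 at 270 FPKM to MRPL32 at 429 FPKM. The decoding side of the small subunit, by contrast, had no abundant message: MRPS5, MRPS7, MRPS11, MRPS12 and MRPS24 had means from 8.16 FPKM (MRPS12) to 36.0 FPKM (MRPS24). MRPS18 exists as 3 related genes, and their mean levels were 8.23 FPKM for MRPS18A, 73.7 FPKM for MRPS18B and 227 FPKM for MRPS18C.

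**Figure D1:**
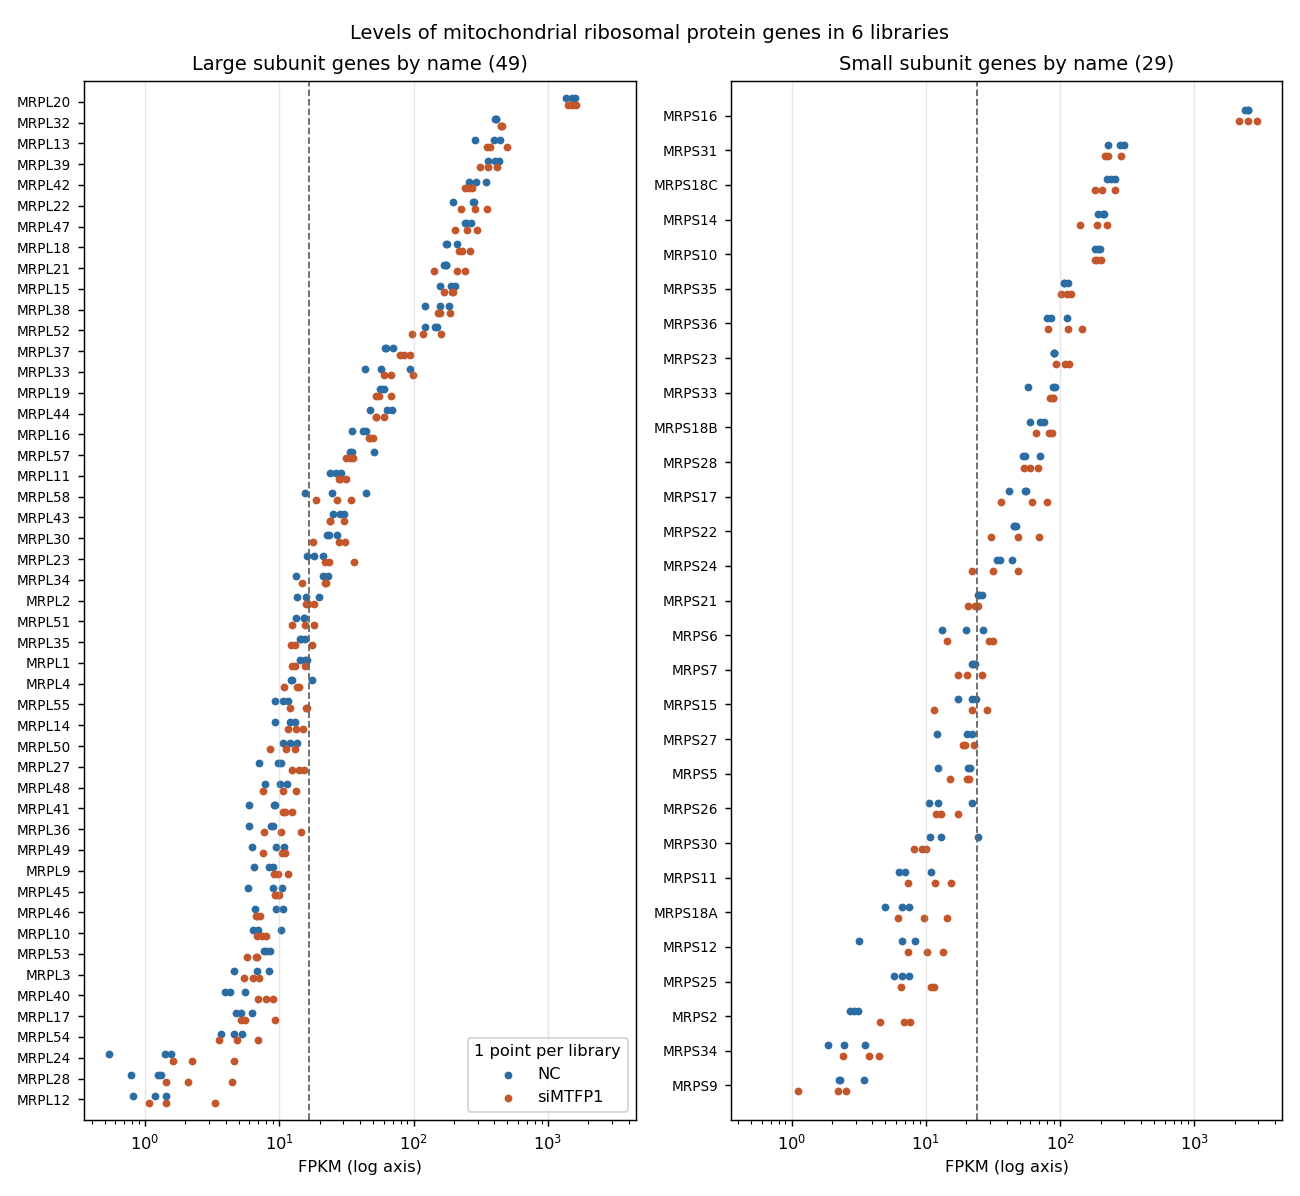
FPKM (log axis) of each large subunit gene (left, 49) and small subunit gene (right, 29), with 1 point per library (blue NC, orange siMTFP1), genes ordered by mean level, and a dashed line at the median gene of the panel. MRPS16 and MRPL20 stand alone above 1000 FPKM, and MRPL12, MRPL28 and MRPL24 lie lowest; for most genes the points of both groups overlap.

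The order of these levels was nearly the same in every library. Spearman's rho between the members' levels in a pair of libraries was 0.963 to 0.981 over the 15 pairs (78 genes, which share each library's depth and are not independent replicates). For most members the spread between libraries was small beside the differences between genes. The median coefficient of variation was 16.1% among the NC libraries and 16.1% among the siMTFP1 libraries. MRPL32 was the steadiest in the NC libraries, at 405, 408 and 408 FPKM. MRPL58, a peptidyl-tRNA hydrolase built into the large subunit, varied most there, at 44.1, 24.5 and 15.4 FPKM.

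Small subunit genes had the higher median level in each of the 6 libraries. The median FPKM of the 29 small subunit genes was 26.8, 26.3 and 24.8 in NC 1, 2 and 3 and 22.8, 31.6 and 29.3 in siMTFP1 1, 2 and 3. For the 49 large subunit genes it was 19.9, 15.9 and 15.4 in NC and 16.3, 15.7 and 18.0 FPKM in siMTFP1. On the log2(FPKM + 1) scale the large subunit median lay below the small subunit median by a value between 0.41 (NC 1) and 0.97 (siMTFP1 2), and large minus small averaged -0.64 over the libraries. Both subunits held very wide ranges of levels, so this gap depends on how a typical gene is defined. It was -0.30 with means of log2 levels in place of medians. It was -0.91 when genes were placed by where their protein sits in the mammalian ribosome. In that arrangement MRPS30 and MRPS18A, both low here, belong to the large subunit in spite of their names, and MRPS36, now known as a component of the oxoglutarate dehydrogenase complex, is left out.

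Proteins with bacterial relatives and those found only in mitochondria, as told from the structural names of the subunits, had similar median levels, 22.5 FPKM for 45 genes and 19.3 FPKM for 31 genes. The split by subunit placed genes by structure and not by name, so MRPS30 and MRPS18A counted as large subunit genes. Within the large subunit so defined the mitochondria-specific genes had the lower median, 12.6 FPKM (21 genes) against 19.4 FPKM (29 genes). Within the small subunit so defined they had the higher one, 60.7 FPKM (10 genes) against 23.3 FPKM (16 genes). The 2 most abundant members both had bacterial relatives, whereas MRPL39, MRPL42 and MRPS31, also among the most abundant, are mitochondria-specific. Set among the 9730 genes tested below, the median member lay at percentile 68.7 of mean level. The 76 cytosolic ribosomal protein genes were far more abundant, with a median of 299.9 FPKM against 22.2 FPKM for the members.

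The comparison between the groups asked whether the members' messages differed between the negative control and the libraries labelled knockdown. It was made with limma on log2(FPKM + 1) over all 9730 genes with a mean of at least 1 FPKM, and all 78 members passed that filter, each with a mean of at least 1 FPKM in both groups. After Benjamini-Hochberg adjustment over all tested genes 0 of 78 members were called, and 0% of all tested genes were. The smallest adjusted p of a member was 0.583, for both MRPS2 and MRPL40. On the log2(FPKM + 1) scale 9 members differed by at least 0.5 and 0 by 1 or more. With a pseudocount of 0.1 in place of 1, 11 differed by at least 0.5 and 3 by 1 or more (MRPS2, MRPL24 and MRPL28), and the same 3 had mean FPKM that differed at least 2-fold between the groups. The 95% interval of the difference in log2(FPKM + 1), from limma and not adjusted, lay within 1.5-fold of FPKM + 1 in either direction for 33 members and within 2-fold for 68. For low members the same limits are wider when read as folds of FPKM itself. In such bulk libraries fewer cells of one type and less RNA per cell cannot be told apart.

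Without adjustment, 11 members had a limma p under 0.05 with the higher mean in siMTFP1, 14.1% of the members, where 3.86% of all tested genes did. One member, MRPS30, had such a p in the lower direction, where 2.66% of all tested genes did. The mean was higher in siMTFP1 for 52 of 78 members, 66.7%, against 54.2% of all tested genes. After median-ratio scaling it was higher for 42 members, where 48.0% of all tested genes were, and without siMTFP1 3 for 41 members, where 56.3% of all tested genes were. The median log2 difference was 0.08 over the members and 0.02 over all tested genes. Without NC 3 these medians were 0.004 and -0.009, and without siMTFP1 3 they were 0.02 and 0.04. Large subunit genes were higher in 34 of 49 cases and small subunit genes in 18 of 29, with median differences of 0.11 and 0.03, and a difference between the subunits was not tested. The large subunit median was 0.006 without NC 3 and 0.0015 without siMTFP1 3. The small subunit median was below 0 after median-ratio scaling (-0.003) and without NC 3 (-0.004). The order of the subunits turned without NC 1, at 0.14 for the large and 0.16 for the small, and without siMTFP1 3, when the small subunit had 0.02. The count of 11 changed when single libraries were left out. It was 4 without siMTFP1 2, 6 without NC 3 and 7 without NC 2, and it was 17 without siMTFP1 1. Over all tested genes, the share with an unadjusted limma p under 0.05 in either direction was 6.53% with all 6 libraries. In the same order as the counts it was 3.45%, 4.64%, 7.30% and 7.85%. After quantile normalization 8 members had such a p with the higher mean in siMTFP1 and 2 with the lower, and 6.78% of all tested genes had one in either direction.

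Of these 11 members, 9 are named for the large subunit and 2 for the small. MRPL40, a mitochondria-specific protein, measured 5.57, 3.93 and 4.3 FPKM in NC 1, 2 and 3 and 7.90, 6.95 and 8.93 FPKM in siMTFP1 1, 2 and 3. The groups did not overlap, and the log2 difference was 0.68 (SE 0.18, limma adjusted p = 0.583). With a pseudocount of 5 it was 0.43. In RefSeq annotation of assembly ARS-UCD2.0, MRPL40 overlaps the gene HIRA, so reads of the 2 genes could be mixed where strand was not used. MRPL27, which reaches toward the peptidyl transferase centre where amino acids are joined, measured 9.74, 10.2 and 7.05 FPKM in NC and 12.4, 15.4 and 14.0 FPKM in siMTFP1. Every siMTFP1 library was above every NC library, by 0.59 on the log2 scale (SE 0.18, limma adjusted p = 0.661). MRPL37, mitochondria-specific and the most abundant but one of the 11, measured 69.9, 61.5 and 62.7 FPKM in NC and 79.9, 84.4 and 94.1 FPKM in siMTFP1. Its groups were also apart, by 0.41 on the log2 scale (SE 0.13, limma adjusted p = 0.698).

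MRPL18, a protein of the central protuberance, measured 176, 209 and 173 FPKM in NC 1, 2 and 3 and 265, 230.0 and 217 FPKM in siMTFP1 1, 2 and 3. The lowest siMTFP1 library was 217 FPKM and the highest NC library 209 FPKM, so the groups were only just apart. MRPL55, which overlaps GUK1 in the same annotation, measured 11.7, 9.22 and 10.6 FPKM in NC and 11.9, 15.7 and 16.1 FPKM in siMTFP1. Here siMTFP1 1 lay beside NC 1, and the difference came from siMTFP1 2 and 3. MRPL41, mitochondria-specific, measured 9.27, 5.96 and 9.19 FPKM in NC and 10.6, 12.4 and 11.1 FPKM in siMTFP1. The NC 2 library was the low one in that gene. Log2 differences were 0.35 for MRPL18, 0.43 for MRPL55 and 0.46 for MRPL41, each with a limma adjusted p of 0.750. For MRPL41 it was 0.27 without NC 2.

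MRPL23 and MRPL24, proteins around the exit of the tunnel, and MRPL28 peaked in siMTFP1 2. MRPL23, which overlaps another annotated gene in the same annotation, measured 21.3, 16.0 and 18.2 FPKM in NC 1, 2 and 3 and 21.8, 36.0 and 23.3 FPKM in siMTFP1 1, 2 and 3. MRPL24 measured 1.57, 1.4 and 0.54 FPKM in NC and 1.63, 4.57 and 2.24 FPKM in siMTFP1. MRPL28 measured 1.26, 0.79 and 1.32 FPKM in NC and 2.09, 4.46 and 1.43 FPKM in siMTFP1. In all 3 genes the other siMTFP1 libraries lay above the NC range, the nearer of them only just. Their log2 differences of 0.50, 0.77 and 0.71 became 0.28, 0.46 and 0.38 without siMTFP1 2. At such low levels the pseudocount matters: MRPL24 differed by 1.19 with a pseudocount of 0.1 and by 0.33 with 5, and MRPL28 by 1.05 and 0.30. Their mean FPKM was 2.40-fold higher in siMTFP1 for MRPL24 and 2.37-fold for MRPL28.

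In the small subunit, MRPS2, which sits between the head and the body, had the smallest p of all members. It measured 3.12, 2.91 and 2.72 FPKM in NC 1, 2 and 3 and 4.55, 7.61 and 6.90 FPKM in siMTFP1 1, 2 and 3. The groups were well apart, by 0.89 on the log2 scale (SE 0.20, limma adjusted p = 0.583), with an unadjusted 95% interval from 0.44 to 1.33. With pseudocounts of 0.1 and 5 the difference was 1.07 and 0.51, and the mean FPKM was 2.18-fold higher in siMTFP1. MRPS12, the protein that guards the accuracy of decoding, measured 3.17, 6.62 and 8.24 FPKM in NC and 7.34, 13.4 and 10.2 FPKM in siMTFP1. Its groups overlapped, since NC 3 lay above siMTFP1 1, and its mean differed by 0.73 on the log2 scale (SE 0.31, limma adjusted p = 0.764). Without NC 1 that difference was 0.40, and with a pseudocount of 5 it was 0.49.

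MRPS30, whose protein belongs to the large subunit by structure, was the 1 member with an unadjusted p under 0.05 in the lower direction. It measured 24.4, 10.8 and 12.98 FPKM in NC 1, 2 and 3 and 9.29, 10.04 and 8.15 FPKM in siMTFP1 1, 2 and 3. The siMTFP1 values all lay below the NC values, but NC 1 was far above the rest. The log2 difference was -0.67 (SE 0.27, limma adjusted p = 0.750), and it was -0.34 without NC 1.

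**Figure D2:**
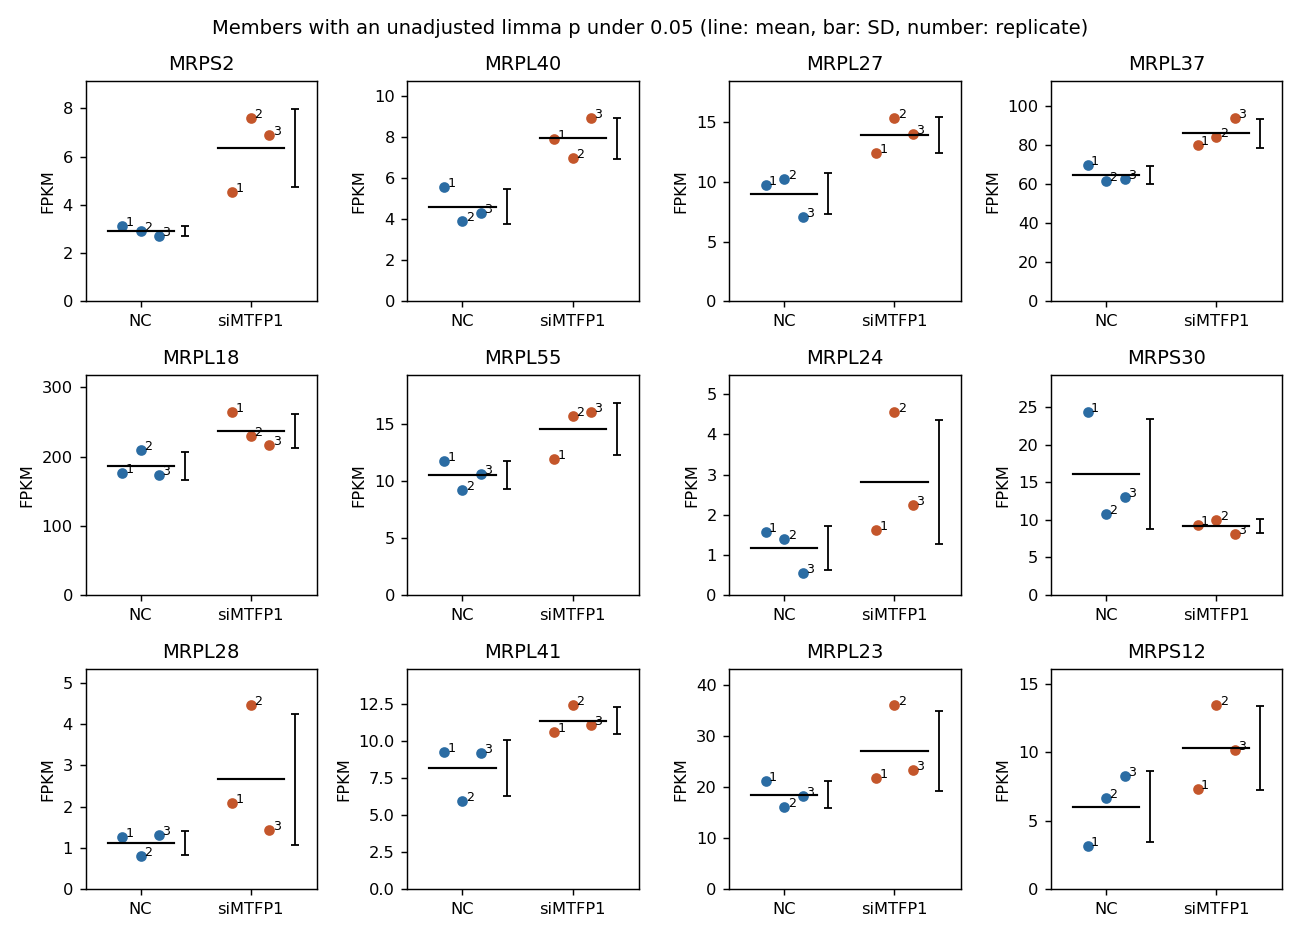
FPKM of the 12 members with an unadjusted limma p under 0.05, on axes that start at 0, with 1 point per library labelled by replicate number, a line at the group mean and a bar of 1 SD (n = 3). MRPS2, MRPL40 and MRPL27 show groups well apart, while MRPL23, MRPL24 and MRPL28 are raised mainly in siMTFP1 2 and MRPS30 is high mainly in NC 1.

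The groups did not overlap for 14 members in the higher direction, 17.9% of the members against 5.97% of all tested genes, and for 3 in the lower direction against 5.05% of all tested genes. Beyond those above, the higher ones were MRPL32, MRPS23, MRPL16 and MRPL9 and the lower ones MRPL53 and MRPS21, all 6 picked out after their values were seen. MRPL32 measured 405, 408 and 408 FPKM in NC and 446, 445 and 459 FPKM in siMTFP1, a small and even step of 0.14 on the log2 scale. MRPS23 measured 90.5, 89.3 and 89.7 FPKM in NC and 92.4, 116 and 109 FPKM in siMTFP1. MRPL53 measured 8.53, 7.74 and 7.99 FPKM in NC and 6.76, 5.73 and 6.88 FPKM in siMTFP1, a log2 difference of -0.29. Log2 differences were 0.22 for MRPS23, 0.26 for MRPL16, 0.32 for MRPL9 and -0.14 for MRPS21. None of these 6 reached an unadjusted limma p under 0.05. For the 2 most abundant members the differences were 0.03 for MRPS16 and 0.02 for MRPL20, with unadjusted 95% intervals from -0.26 to 0.33 and from -0.24 to 0.28.

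Members with low levels held most of the larger differences. Of 32 members with a mean under 15 FPKM, 8 had an unadjusted limma p under 0.05 in the higher direction, 25%, against 4.54% of the 5987 tested genes in that range. Of 27 members from 15 to 100 FPKM, 2 did, 7.41% against 2.93% of tested genes there. Of the 19 members at 100 FPKM or more, 1 did, MRPL18, which is 5.26% against 2.44%. The median log2 difference in these ranges was 0.22, 0.04 and 0.02. The limits of 15 and 100 FPKM were chosen after the values were seen. The 11 members were selected for a higher mean in siMTFP1, which favours a peak in a siMTFP1 library. In 7 of 11 cases it lay in siMTFP1 2, as it did for 52.7% of all tested genes selected the same way. The summed cumulus and granulosa markers were also highest in siMTFP1 2, at 206 FPKM. Of the 18 markers 3 peaked in that library, 4 in NC 1 and 4 in NC 3. The median marker had 1.38 FPKM in siMTFP1 2 and 2.7 FPKM in NC 1. Of the 11 tested markers 7 were higher and 4 lower in siMTFP1. Among them SERPINE2 measured 13.3, 13.8 and 16.4 FPKM in NC 1, 2 and 3 and 24.6, 43.1 and 18.0 FPKM in siMTFP1 1, 2 and 3, so its groups did not overlap. Theca and stroma markers summed to 28.7 FPKM in siMTFP1 2 and to 7.36 to 15.6 FPKM in the other libraries. Of 7 such markers 4 peaked in siMTFP1 2, and 1 each in NC 1, NC 3 and siMTFP1 3. Among them LUM measured 22.85 FPKM in siMTFP1 2 and 0.38 to 7.39 FPKM elsewhere. Leukocyte markers had their highest sum in siMTFP1 3, at 6.04 FPKM. The part of these markers in the members' differences was not tested.

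**Figure D3:**
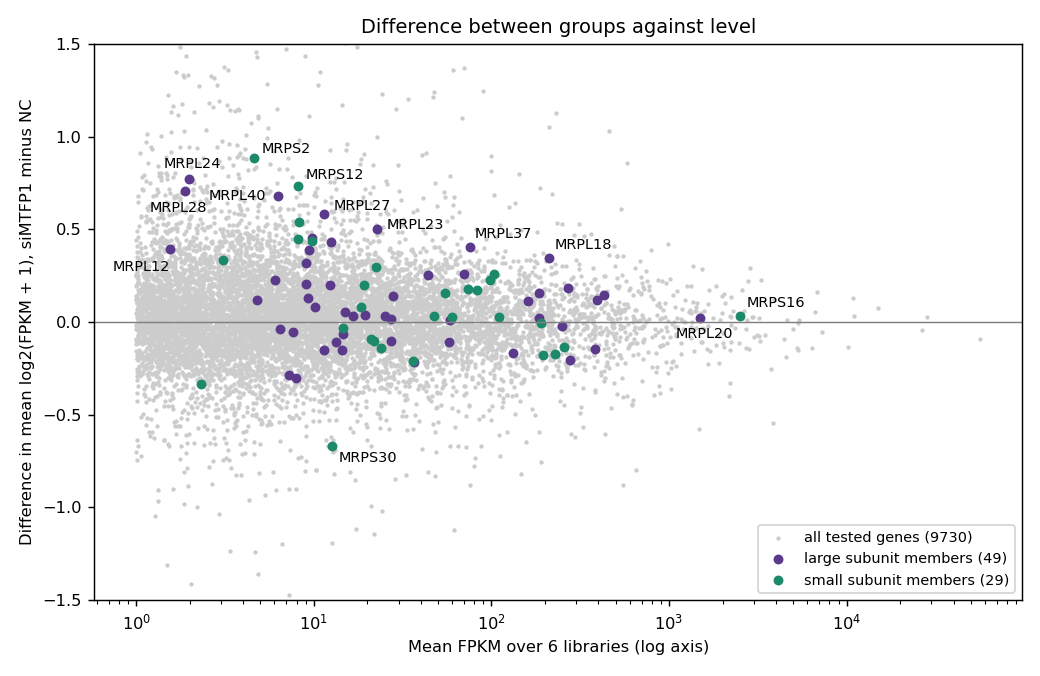
Difference in mean log2(FPKM + 1), siMTFP1 minus NC, against mean FPKM over the 6 libraries (log axis) for all 9730 tested genes (grey) and for the large (purple) and small (green) subunit members, with 33 grey genes beyond 1.5 in either direction not drawn. The larger member differences lie at low levels, and MRPS16 and MRPL20 lie near 0.

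For the members, single siMTFP1 libraries differed from each other, with siMTFP1 1 the low library and siMTFP1 3 the high one. This pair was picked out after its values were seen. Single libraries also vary more than means of 3, so their difference cannot be set directly against that of the groups. Of the 78 members, 61 were higher in siMTFP1 3 than in siMTFP1 1, 78.2%, where 42.5% of all tested genes were. The median log2 difference between those 2 libraries was 0.31 over the members and -0.07 over all tested genes. It was 0.20 in the large and 0.44 in the small subunit. siMTFP1 3 was the highest of the 6 libraries for 31 members, 39.7%, whereas 15.5% of all tested genes peaked there. The lowest value lay in siMTFP1 1 for 23 members, 29.5%, against 14.2% of all tested genes. NC 3 was lowest for another 23 members, as it was for 28.8% of all tested genes. Set against NC 1, the members of NC 2 and NC 3 had median log2 differences of -0.08 and -0.14, where all tested genes had -0.06 and -0.13.

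Genes with this pattern included MRPS22, a mitochondria-specific small subunit protein, at 30.6, 48.5 and 69.6 FPKM in siMTFP1 1, 2 and 3 against 45.0, 45.7 and 47.0 FPKM in NC 1, 2 and 3. MRPS24, at the entry of the message channel, measured 22.1, 31.6 and 48.4 FPKM in siMTFP1 and 43.6, 36.0 and 34.1 FPKM in NC. MRPS17 measured 36.0, 61.6 and 79.2 FPKM in siMTFP1 and 54.9, 55.8 and 41.4 FPKM in NC. These 3 were picked out after their values were seen, and in each the siMTFP1 libraries lay on both sides of the NC libraries.

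The cytosolic ribosomal protein genes showed the same order of the siMTFP1 libraries more strongly. Of 76 such genes, 75 were higher in siMTFP1 3 than in siMTFP1 1, with a median log2 difference of 0.77. Between the groups the cytosolic genes went the other way from the members. Of the 76, 51 were lower in siMTFP1 and 25 higher, with a median log2 difference of -0.095. The summed FPKM of a library was likewise lowest in siMTFP1 1 and highest in siMTFP1 3. As a share of that sum, the members took 1.11%, 1.12% and 1.04% in NC 1, 2 and 3 and 1.10%, 1.12% and 1.16% in siMTFP1 1, 2 and 3. Of 12 oocyte markers, 7 were highest in siMTFP1 3. The part of these in the members' pattern was not tested.

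**Figure D4:**
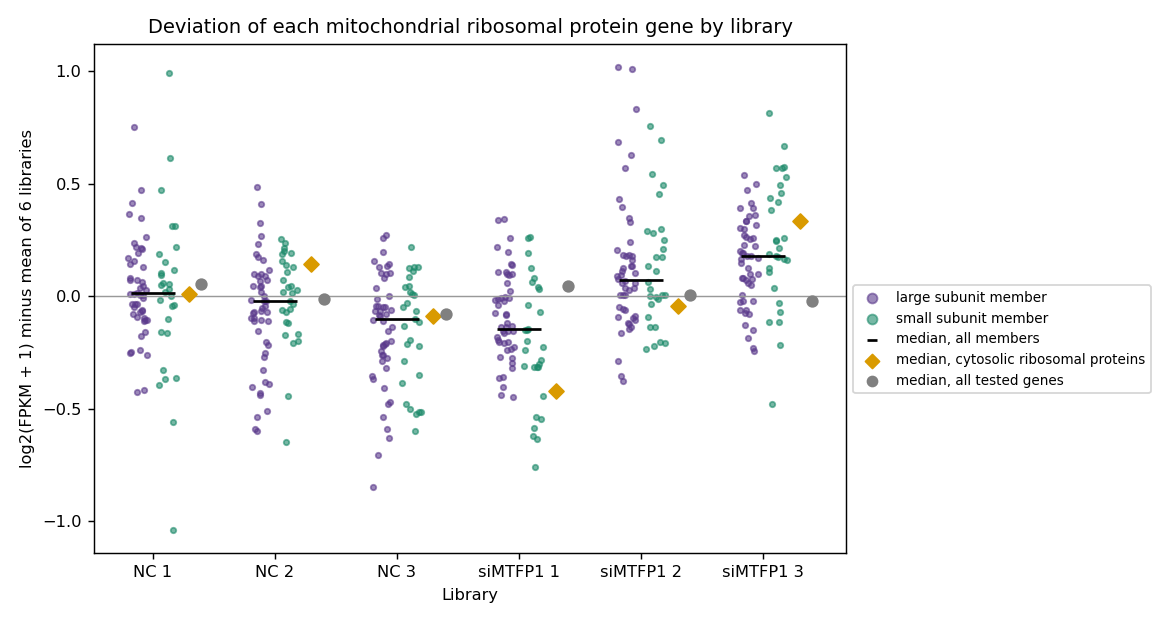
Deviation of each member's log2(FPKM + 1) from its mean over the 6 libraries, by library, with 1 point per gene (purple large, green small subunit), a black line at the members' median, and medians for 76 cytosolic ribosomal protein genes (diamond) and all 9730 tested genes (grey circle). The members' median is lowest in siMTFP1 1 (-0.15) and highest in siMTFP1 3 (0.18), and in both the cytosolic genes lie further the same way.

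Some proteins of the mitochondrial ribosome carry other symbols, and 5 of them were in the files. CHCHD1 was abundant, with a mean of 378 FPKM, and AURKAIP1, GADD45GIP1, PTCD3 and DAP3 had mean levels of 41.3, 15.8, 5.46 and 4.28 FPKM. AURKAIP1 measured 35.8, 35.5 and 34.8 FPKM in NC 1, 2 and 3 and 39.7, 50.7 and 51.5 FPKM in siMTFP1 1, 2 and 3. Its groups did not overlap, and the log2 difference was 0.40 (SE 0.15, limma adjusted p = 0.750). The other 4 had overlapping groups.

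Around the ribosome, 0 genes of the related lists passed the adjusted threshold in limma. Of 14 tested translation factors and activators 5 were higher and 9 lower in siMTFP1, with a median log2 difference of -0.07. The lead gene was MTFMT, which formylates the initiator methionyl-tRNA, at 113, 112 and 128 FPKM in NC and 89.8, 71.5 and 83.2 FPKM in siMTFP1. Its groups were apart, by -0.53 on the log2 scale (SE 0.14, limma adjusted p = 0.583). SLIRP, which with LRPPRC stabilizes mitochondrial messages, differed by -0.37 with overlapping groups. Of 14 tested mitochondrial aminoacyl-tRNA synthetases 8 were higher and 6 lower, with 0 at an unadjusted limma p under 0.05. Of 20 tested ribosome assembly factors 13 were higher and 7 lower, with MALSU1, which keeps the subunits from joining early, at a log2 difference of 0.60 (limma adjusted p = 0.750). In GTPBP10, a GTPase of large subunit assembly, the difference was -0.85 (limma adjusted p = 0.447). GTPBP10 measured 19.9, 21.1 and 25.8 FPKM in NC 1, 2 and 3 and 11.6, 12.4 and 11.5 FPKM in siMTFP1 1, 2 and 3. The groups did not overlap in GTPBP10 or in MALSU1.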

How the data were processed

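The deposited tables hold 1 FPKM value per gene and library, made by the authors and rounded to 2 decimals, for 17325 genes. Per the submitters' processing notes, the tools were RSEM 1.3.1, HISAT2 2.2.1, DESeq2 1.4.5 and Bowtie2 2.3.4.3, with no stated role, and the genome build was ARS-UCD1.2. The use of strand and the handling of reads that fit several genes are not given in the sources used here. In the RefSeq table of ARS-UCD2.0, used for names and neighbours only, 23 of the 78 members overlap another gene, which makes their values less certain. FPKM keeps no read totals, so the depth is unknown and no counting interval is given.

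Groups came from the sample titles. Values were taken as log2(FPKM + 1), genes with a mean of at least 1 FPKM over the 6 libraries were kept (9730), and limma 3.58.1 (R 4.3.3) compared siMTFP1 with NC, two-sided, with a variance trend and no other term. Benjamini-Hochberg adjustment over all tested genes was set against a threshold of 0.05. Differences on this scale understate those of low genes.

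The members, gene lists and structural classes were chosen with earlier results of these data known. Named were MTFP1, the 5 highest and 3 lowest members of each subunit, members at an unadjusted p under 0.05, up to 6 members per direction with the smallest p, ribosomal proteins under other symbols, up to 2 genes per related list and the 3 highest markers of each cell type, from which the text gives those it needs. Other members are named as examples of a role or pattern. Alternatives were other pseudocounts, filters, scalings, a replicate block, robust eBayes and leaving out each library. Tables and plots used Python 3.11.15, pandas 2.3.3 and matplotlib 3.10.9.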

Additional observations from a re-analysis of the deposited data

How the results depend on the processing

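Over the 15 alternatives, 0 members were called in any. The differences of the 12 members with an unadjusted limma p under 0.05 kept their direction in all 177 values. Their limma adjusted p-values ran from 0.284 to 1.00. These 12 were selected in the same data, and the groups did not overlap for 10 of the 11 higher ones and for MRPS30. Leaving out a library or changing the pseudocount could not reverse those, so the kept direction is not separate support. Over all genes limma called 2 with genes of at least 5 FPKM only and 2 with equal sums, and 0 to 2 when 1 library was left out. The 11 members at an unadjusted p in the higher direction became 7 with no filter and 7 with median-ratio scaling, and 4 to 17 when 1 library was left out. The 1 in the lower direction became 0 with no filter and 2 with quantile normalization, and 0 to 2 when 1 library was left out. Of all tested genes, 6.01% had such a p in either direction with no filter and 6.69% with median-ratio scaling, in place of 6.53%. That share was 3.45% to 7.85% when 1 library was left out. Members with a higher mean numbered 42 with median-ratio scaling and 48 with quantile normalization in place of 52, and 40 to 57 when 1 library was left out. Of all tested genes, 48.0% had a higher mean with median-ratio scaling and 47.0% with quantile normalization, in place of 54.2%. Leaving out 1 library gave 47.9% to 59.7% of all tested genes. The median difference of the members stayed above 0, from 0.004 to 0.18. Large minus small averaged -0.91 with genes placed by structure and -0.30 with means of log2 levels, and -0.69 to -0.58 when 1 library was left out. The cause of these shifts was not tested.

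Replicate numbers are shared by the groups, but nothing in the labels pairs them. Deviations of same-numbered libraries correlated at 0.03, -0.16 and 0.07 over genes, and not every library correlated best with its own number. With the replicate number as a block, 9 members had an unadjusted p in the higher direction and 1 in the lower, and 0 were called. Of all tested genes, 6.47% had such a p in either direction with the block.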
